A study of Homo sapiens with 4 samples.

Results

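The HNRNP and SR splicing proteins were taken as every gene name that starts with HNRNP, is SRSF followed by a number, or is TRA2A or TRA2B. This gave 33 of the 14355 gene names in the ribosome profiling tables: 20 HNRNP names, 11 SRSF names and the 2 TRA2 genes, with 124 of 38455 transcripts. The names HNRNPH1, HNRNPL, HNRNPR and SRSF12 were not among them, so orders and medians below do not cover the whole families. Ribosome profiling sequences the short RNA fragments that ribosomes protect from nuclease, so reads in a coding sequence count ribosomes on that mRNA. Hermes 4B is an established, immortalised line of human skin melanocytes, labelled wild type. The cells were transfected with an siRNA that targets CDH3-AS1, which is transcribed antisense to the P-cadherin gene CDH3 and codes for no known protein, or with a control siRNA. Both siRNAs were used at 25 to 50 nM, all cells grew with serum, stem cell factor, cholera toxin, endothelin-1 and the phorbol ester TPA, and 100 µg/mL cycloheximide was in the wash buffer. Each siRNA had 2 libraries, replicate 1 in batch 1 and replicate 2 in batch 2. The labels name no separate cultures, so p-values measure the spread between these libraries, which may be technical.

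HnRNP proteins coat nascent transcripts and mostly bind intronic or silencing elements, while SR proteins carry an RNA-recognition motif with an arginine- and serine-rich tail and mostly recruit the spliceosome to exons. The balance between both families decides many alternative exons in pigment cells as in other tissues. Many of these genes limit their own level through a poison exon, an alternative exon with an early stop codon that sends the mRNA to nonsense-mediated decay.

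Library totals were 6759850 and 2858835 reads with CDH3-AS1 siRNA (replicates 1 and 2), against 2034854 and 5994485 reads with control siRNA. The 7 melanocyte markers were read in every library, at a summed 21567 and 32463 CPM with CDH3-AS1 siRNA and 22680 and 39547 CPM with control siRNA, where CPM are coding-sequence counts scaled to each library's coding reads after TMM normalisation. Skeletal muscle markers, 7 of 9 listed, summed to 6.65 and 3.16 CPM with CDH3-AS1 siRNA, and to 3555 and 5.30 CPM with control siRNA. Control siRNA replicate 1 stood apart, and CKM, MYH1 and TNNC2 were at 0 in each of the other libraries. Fibroblast markers, 5 of 6 listed, also had their highest sum there, at 487 CPM against at most 4.28 CPM elsewhere. One of them, DCN, went the other way, at 0 in that library and read in each of the others. The level of CDH3-AS1 was not analysed here and the knockdown is taken from the labels. With 2 libraries against 2, 0.333 is the smallest p that an exact two-sided permutation test on 1 gene allows. No transcript or protein sequence was used here, so none is printed.

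The members together took 0.552% and 0.634% of coding reads with CDH3-AS1 siRNA, and 0.641% and 0.635% with control siRNA. Of the 33 genes, 32 passed the filter on low counts. HNRNPA1L3, a retroposed copy of HNRNPA1, did not, with 1 read in replicate 1 of each siRNA and 0 in both replicates 2. Levels are compared between genes as RPKM, here CPM per kilobase of the longest coding sequence listed for the gene. The median member lay at the 89.6th percentile of the 10469 tested genes, and 28 of 32 members were above the median tested gene.

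HNRNPA2B1, a core particle protein that binds UAG-type motifs, had the highest mean level at 560 ± 122 RPKM (SD over the 4 libraries). SRSF2, the classical SC35 exon-definition factor, followed at 404 ± 145 RPKM, and HNRNPU, a nuclear scaffold protein, at 306 ± 64.3 RPKM. HNRNPAB, HNRNPF, HNRNPK, HNRNPM, HNRNPD and HNRNPC lay between 228 and 289 RPKM. Among the other SR proteins, SRSF3, SRSF1, SRSF9 and SRSF7 lay between 166 and 212 RPKM, and SRSF6, SRSF11, SRSF4, SRSF10 and SRSF8 between 49.4 and 81.2 RPKM. The order is coarse: of 32 neighbouring pairs, 30 had overlapping libraries, and only HNRNPLL over HNRNPA1 and HNRNPA1L2 over HNRNPA1L3 were apart in all 4. The plot of levels by library shows this continuum and the few genes below it.

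**Figure D1:**
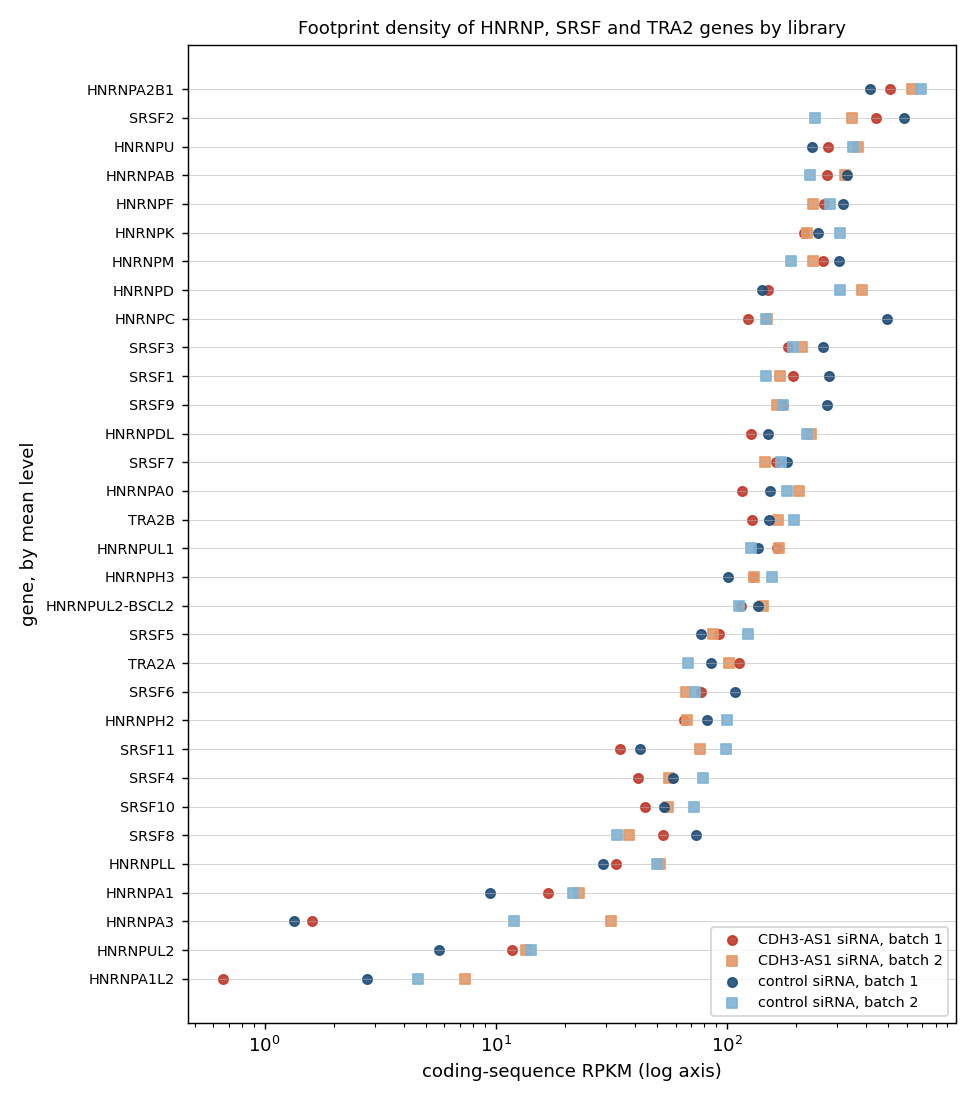
Coding-sequence RPKM (log axis) of 32 HNRNP, SRSF and TRA2 genes in each library, ordered by mean. Most genes have means between 40.8 and 560 RPKM, with HNRNPA1, HNRNPA3, HNRNPUL2 and HNRNPA1L2 below it, and the batch 1 control point of HNRNPC stands away from its other 3 libraries.

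Several of the low values belong to genes with near-identical copies, which the counting can split or lose. HNRNPA1, one of the founding hnRNP proteins with many processed copies in the genome, had 102 and 56 coding reads with CDH3-AS1 siRNA, against 17 and 117 reads with control siRNA. Its mean of 17.7 RPKM lay far under the 560 RPKM of its relative HNRNPA2B1. HNRNPUL2, a scaffold-type hnRNP on chromosome 11 (62712630 to 62727457, GRCh38.p14), had 166 and 77 reads against 24 and 180. The read-through name HNRNPUL2-BSCL2 (62690262 to 62727384), which covers nearly the same gene, had 1632 and 812 reads against 573 and 1435. The 5′ UTR reads of this locus were all listed under HNRNPUL2 and 0 under the read-through, so the footprints of 1 locus stand under both names. Levels of HNRNPA1, HNRNPA1L2, HNRNPA3 and both HNRNPUL2 names are therefore uncertain.

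The comparison of the siRNAs asks which coding sequences carry more or fewer ribosomes after knockdown. A change in mRNA level and one in ribosomes per mRNA cannot be told apart here, since no RNA-seq entered. With CDH3-AS1 siRNA against control siRNA, edgeR's quasi-likelihood test called 0 of the 32 tested members, where the share of all tested genes called was 0%. At an unadjusted p under 0.05 there were also 0 members, against 225 of 10469 genes, and DESeq2 and limma called 0 members too. With the replicate block 1 of 32 members was called, HNRNPC, which was lower, where 1.62% of all tested genes were called (0.697% lower and 0.927% higher). Unadjusted, 2 of 32 members had a p under 0.05 with the block, HNRNPC and HNRNPA3, against 1025 of 10469 genes, so the members' share was below that of all genes. The median log2 fold change was -0.07 over the 32 members and -0.03 over all tested genes. Without the block 29 of 32 members (90.6%) lay within 0.5 of 0 on the log2 scale, against 78.6% of all tested genes. The members' median SE was 0.36, beside 0.42 over all tested genes, and genes of like level were not compared.

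By batch the members' median was -0.25 in batch 1 and 0.05 in batch 2, beside 0.01 and -0.03 over all tested genes. In both batches 7 members were higher with CDH3-AS1 siRNA (HNRNPA1, HNRNPA3, HNRNPD, HNRNPLL, HNRNPU, HNRNPUL1 and TRA2A). Another 10 were lower in both (HNRNPF, HNRNPH2, HNRNPK, SRSF4, SRSF6, SRSF7, SRSF9, SRSF10, SRSF11 and TRA2B), and 15 went opposite ways. The HNRNP genes had a median log2 fold change of 0.04, at -0.21 in batch 1 and 0.08 in batch 2 (6 of 19 higher and 3 lower in both batches). The SRSF and TRA2 genes had a median of -0.22, at -0.39 in batch 1 and -0.13 in batch 2 (1 of 13 higher and 7 lower in both batches). Over all tested genes 26.5% were higher and 27.8% lower in both. No member of the SRSF and TRA2 group passed the test with or without the block, so this lean is a description of the libraries. Control siRNA replicate 1, which held the muscle reads, was the highest library for SRSF1, SRSF2, SRSF3, SRSF6, SRSF7, SRSF8 and SRSF9. Control siRNA replicate 2 was highest for SRSF4, SRSF5, SRSF10, SRSF11 and TRA2B, and CDH3-AS1 siRNA replicate 1 for TRA2A. The part of the muscle reads in the lean was not tested.

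**Figure D2:**
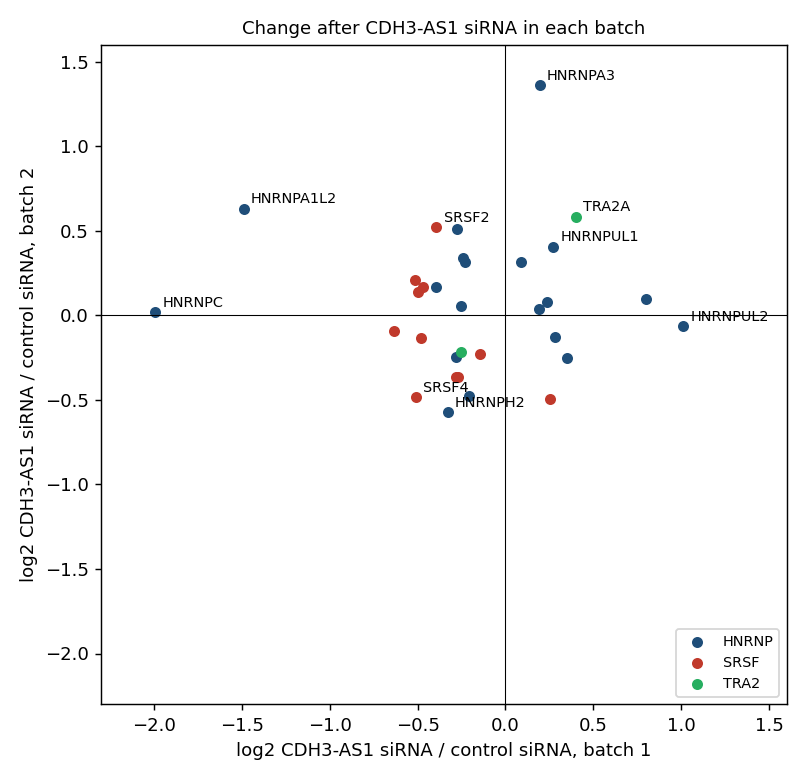
Each point is 1 of 32 tested genes, with its log2 ratio of CDH3-AS1 siRNA to control siRNA in batch 1 (horizontal) and batch 2 (vertical). Most points cluster around 0, and HNRNPC lies far left on the horizontal line, at -2.0 in batch 1 and 0.02 in batch 2.

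HNRNPC encodes the hnRNP C1/C2 protein, which binds uridine tracts as a tetramer and keeps cryptic exons, many of them from Alu elements, out of mRNA. The gene lies on chromosome 14 at 21209147 to 21269442 (GRCh38.p14, from the NCBI gene table). Its coding sequence had 108 and 132 CPM with CDH3-AS1 siRNA, against 433 and 130 CPM with control siRNA. Control siRNA replicate 1 was thus the single high library, and the other 3 lay within a narrow range. Scaled by library totals alone, the batch 2 pair stood at 128 CPM with CDH3-AS1 siRNA and 131 CPM with control siRNA, so the small batch 2 difference changes sign with the scaling.

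The log2 fold change of HNRNPC was -1.22 (SE 0.57, adjusted p = 1.00 by edgeR's quasi-likelihood test) without the block. With the replicate block it was -1.0 (SE 0.27, adjusted p = 0.0148). The called decrease thus combines -2.0 in batch 1 with 0.02 in batch 2. Without control siRNA replicate 1, and with no block, the fold change was -0.09 (adjusted p = 0.974), and it ran down to -1.84 with any other library left out (adjusted p 0.0702 or higher). Each such fit leaves 1 siRNA with a single library, which is assumed to vary like the pair of the other siRNA. DESeq2 with the block did not call it (-0.98, adjusted p = 1.00), nor did limma with the block (-1.01, adjusted p = 0.485). The same control library held the muscle and fibroblast reads described above, and their part in the HNRNPC value was not tested. HNRNPC was singled out for its batch 1 difference, so its batch 1 values are a description. The p-values and calls of HNRNPC given here draw on those values and are a description too.

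The tables list HNRNPC reads under 3 main transcripts, and each read appears to be assigned to 1 of them. ENST00000336053.10 (coding sequence of 867 bases) held 92.5 and 113 coding CPM with CDH3-AS1 siRNA, against 427 and 104 CPM with control siRNA. ENST00000556142.5 (696 bases), which takes the coding reads the first does not, held 15.8 and 18.6 CPM against 6.40 and 26 CPM. The batch 1 control was thus the highest library for the first transcript and the lowest for the second. ENST00000556142.5 took 14.6% (95% Clopper-Pearson interval 12.1 to 17.5) and 14.1% (10.5 to 18.3) of HNRNPC coding reads with CDH3-AS1 siRNA. With control siRNA it took 1.48% (0.765 to 2.56) and 20.0% (17.1 to 23.0). Intervals cover counting error only. By both share and level, the excess of coding reads in control siRNA replicate 1 was listed under 1 transcript. Whether the reads came from that transcript cannot be told, since the rule for reads that match several is not given. Their positions were not analysed.

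The 5′ UTR reads of HNRNPC lay under ENST00000336053.10 and another transcript. In ENST00000336053.10 they stood at 5.07 and 8.29 CPM with CDH3-AS1 siRNA, against 21.3 and 4.77 CPM with control siRNA, again highest in the batch 1 control. In ENST00000430246.6, whose 5′ UTR is 2952 bases long and whose coding sequence had 0 reads, they stood at 44.5 and 27.3 CPM, against 34.7 and 22.8 CPM. That long 5′ UTR was higher with CDH3-AS1 siRNA in both batches, and the batch 1 control did not stand out. No transcript of a member passed edgeR's quasi-likelihood test over 16932 transcripts, with the block (0.189% called) or without it (0% called). At an unadjusted p under 0.05 there were 6 of 65 tested member transcripts with the block, against 1158 of all 16932 transcripts, and 1 without it, against 246 of all. ENST00000336053.10 had a log2 fold change of -1.38 (SE 0.64, adjusted p = 1.00) without the block and -1.07 (SE 0.39, adjusted p = 0.50) with it. Without control siRNA replicate 1 its fold change was 0.01.

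**Figure D3:**
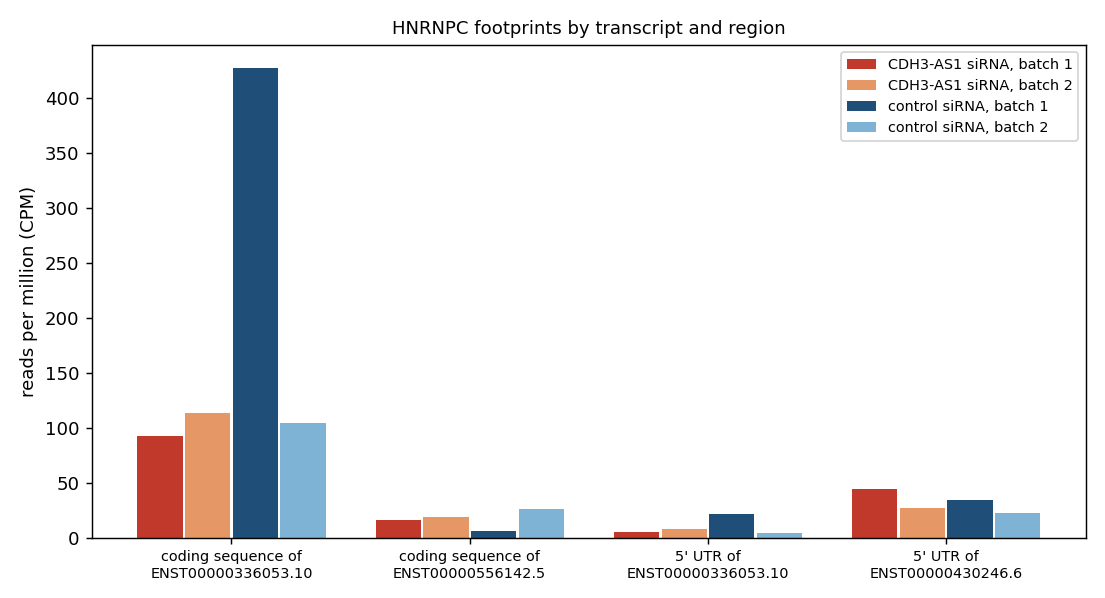
HNRNPC reads in CPM by transcript and region, 1 bar per library. The coding sequence and 5′ UTR of ENST00000336053.10 are highest in the batch 1 control library (427 and 21.3 CPM), while the coding sequence of ENST00000556142.5 is lowest there (6.40 CPM).

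By a distance over both batch fold changes, the gene nearest HNRNPC among 5235 genes of at least median level was LSG1, a GTPase of 60S ribosome maturation, at -2.07 in batch 1 and -0.23 in batch 2. LSG1 had 70.2 and 55.3 CPM with CDH3-AS1 siRNA, against 297 and 65.1 CPM with control siRNA. The histone gene H2AC13, RASSF3, CHCHD1 and the mitochondrial MT-CO2 followed, at -1.63 to -1.35 in batch 1. These did not all share the single high control library of HNRNPC. MT-CO2 had 79.8 and 1099 CPM with CDH3-AS1 siRNA, against 209 and 1357 CPM with control siRNA, and was highest in batch 2. RASSF3 had 34.5 and 64.0 CPM against 92.2 and 74.3 CPM, and CHCHD1 31.5 and 69.9 CPM against 81.0 and 62.9 CPM. Both were lowest in CDH3-AS1 siRNA replicate 1. None of the genes nearest HNRNPC is a splicing factor, and likeness was measured over only 4 libraries.

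After HNRNPC, the lowest fold changes belonged to SRSF4 and HNRNPH2. SRSF4, a long-tailed SR protein, had 61.0 and 83.3 CPM with CDH3-AS1 siRNA, against 86.9 and 117 CPM with control siRNA, a log2 fold change of -0.50 (SE 0.34). HNRNPH2, which binds G-tracts, had 88.2 and 90.5 CPM against 111 and 135 CPM (-0.46, SE 0.31). In neither did the groups overlap, and both missed the threshold in edgeR's quasi-likelihood test (adjusted p = 1.00 without, 0.573 and 0.619 with the block).

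TRA2A, which promotes exons with GAA-rich enhancers, had the highest fold change after HNRNPA3. TRA2A had 95.8 and 86.9 CPM with CDH3-AS1 siRNA, against 72.5 and 57.8 CPM with control siRNA, with no overlap. Its log2 fold change was 0.49 (SE 0.32, adjusted p = 1.00 by edgeR's quasi-likelihood test, and 0.590 with the block included), and the batch values were 0.40 and 0.58. Its paralog TRA2B, with the same binding preference, stood at -0.24 (SE 0.33), with -0.25 and -0.22 in the batches. HNRNPUL1, a scaffold-type hnRNP linked to DNA damage signalling, had 425 and 433 CPM against 352 and 326 CPM (0.34, SE 0.31, adjusted p = 0.721 with the block). HNRNPA3 had the largest positive fold change, 1.10 (SE 1.27), but on 12 and 95 reads with CDH3-AS1 siRNA and 3 and 81 reads with control siRNA, with both batch 1 libraries low. Its 3′ UTR held 60.0% and 3.06% of its coding and 3′ UTR reads with CDH3-AS1 siRNA, against 76.9% and 12.9% with control siRNA.

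In all, 8 of 32 members had libraries that did not overlap between the siRNAs, beside 27.4% of all tested genes. Of these 2 were higher, TRA2A and HNRNPUL1, beside 13.3% of all tested genes, and 6 lower, beside 14.1%: SRSF4, SRSF7, SRSF9, HNRNPF, HNRNPH2 and HNRNPK. HNRNPK, which binds cytidine tracts, had 300.0 and 310 CPM with CDH3-AS1 siRNA, against 347 and 431 CPM with control siRNA (-0.35, SE 0.32). SRSF7 and SRSF9, both small SR proteins, stood at -0.18 (SE 0.30) and -0.39 (SE 0.35). A share of 8 in 32 is close to that of all genes.

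Coding reads of a gene were also split by transcript, and a share is that of the gene's coding reads. How reads that match several transcripts were assigned is not given. Shares therefore describe the deposited assignment and cannot be read as isoform use, and intervals do not cover assignment error. The transcripts below were picked after their values were seen, from the 14 members with at least 2 transcripts of 100 reads and 5% of the gene's reads. The SRSF3 and SRSF6 transcripts further down hold fewer reads and were also picked after their values were seen. SRSF2 reads fell on ENST00000358156.7 (645 coding bases) and ENST00000359995.10 (666 coding bases). The first took 68.5% (95% interval 66.4 to 70.7) and 59.1% (55.0 to 63.1) of coding reads with CDH3-AS1 siRNA. With control siRNA it took 39.4% (35.8 to 43.1) and 51.1% (47.7 to 54.3). Its share was higher with CDH3-AS1 siRNA in both batches, with intervals that did not overlap.

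In CPM the shorter SRSF2 transcript had 203 and 136 with CDH3-AS1 siRNA, against 153 and 82.0 with control siRNA, a log2 fold change of 0.52 (SE 0.43). The longer had 93.0 and 94.4 CPM against 235 and 78.7 CPM (-0.75, SE 0.53). By edgeR's quasi-likelihood test over transcripts both had an adjusted p of 1.00, and 0.727 and 0.810 with the block. SRSF2 as a gene stood at -0.06 (SE 0.47), which turned to 0.060 with the block and was -0.39 in batch 1 and 0.52 in batch 2.

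SRSF1, the prototype SR protein, split between ENST00000258962.5 (747 coding bases) and the short ENST00000583741.1 (198 coding bases, 3′ UTR of 1143 bases). The short form took 54.4% (51.1 to 57.7) and 41.0% (35.6 to 46.6) of coding reads with CDH3-AS1 siRNA, against 33.2% (28.6 to 38.2) and 41.3% (37.4 to 45.3) with control siRNA. Intervals did not overlap in batch 1 and overlapped in batch 2. HNRNPAB, an hnRNP that also binds DNA and takes part in mRNA transport, had its lowest share in the same control: ENST00000358344.8 took 10.3% and 15.2% of reads with CDH3-AS1 siRNA, against 3.72% and 21.0% with control siRNA. HNRNPC's second transcript also had its lowest share in that library. SRSF7 varied less, with 29.8% and 22.6% of reads on ENST00000431066.5 against 22.5% and 32.6%.

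**Figure D4:**
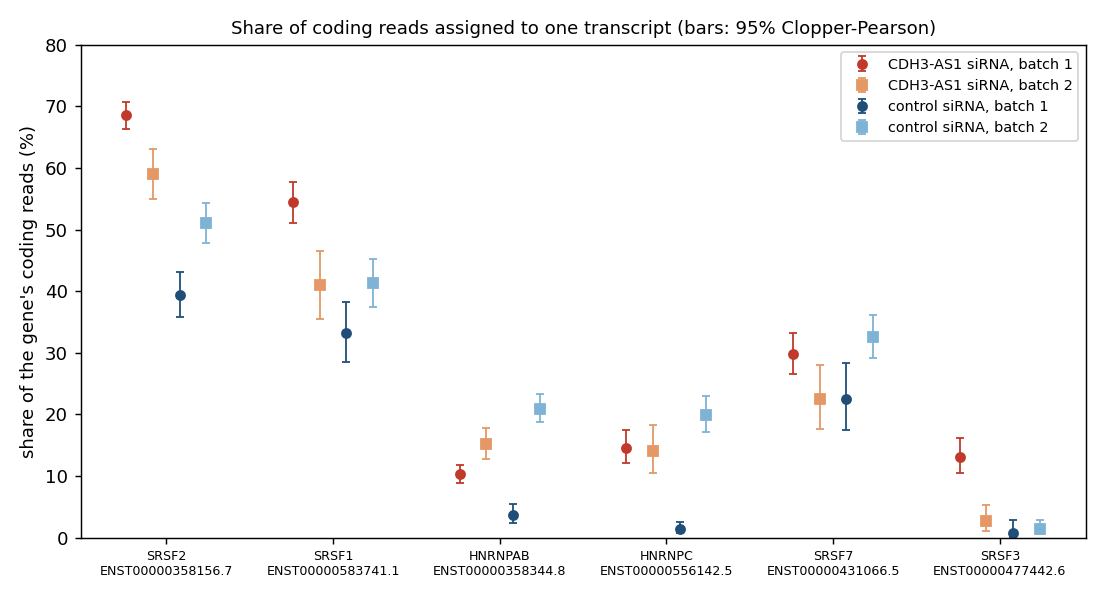
Share of a gene's coding reads (%) assigned to 1 named transcript in each library, with 95% Clopper-Pearson intervals for counting error only. For SRSF2 both CDH3-AS1 siRNA libraries (68.5% and 59.1%) lie above both control libraries (39.4% and 51.1%), while SRSF3 stands out in 1 CDH3-AS1 siRNA library (13.2%).

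SRSF3, the smallest SR protein and a growth-promoting factor, is known to limit itself through a poison exon. Its transcript ENST00000477442.6 (375 coding bases, where its most-read transcript has 288 and its longest 495) had 76 and 7 coding reads with CDH3-AS1 siRNA, against 2 and 8 with control siRNA. That is 13.2% (10.5 to 16.2) and 2.64% (1.07 to 5.37) of SRSF3 coding reads, against 0.826% (0.100 to 2.95) and 1.48% (0.643 to 2.90). CDH3-AS1 siRNA replicate 1 was the single high library. Whether ENST00000477442.6 carries the poison exon was not analysed here. Over transcripts, its 2.19 on the log2 scale (SE 0.80) missed the threshold by edgeR (adjusted p = 1.00, and 0.578 with the block). The SRSF6 transcript ENST00000483871.6 was also highest in that library at low depth, with 32 and 2 coding reads against 4 and 10.

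The same SRSF3 transcript held most of the gene's 3′ UTR reads, 196 and 50 with CDH3-AS1 siRNA, against 32 and 43 with control siRNA. Reads in 3′ UTRs made up 27.3% (24.3 to 30.6) and 17.7% (13.7 to 22.3) of SRSF3's coding and 3′ UTR reads with CDH3-AS1 siRNA, against 13.6% (9.79 to 18.1) and 8.18% (6.09 to 10.7) with control siRNA. The CDH3-AS1 siRNA library was higher in each batch. In whole libraries the 3′ UTR share was 2.28% and 1.62% against 3.48% and 1.03%, so in batch 1 the pooled share went the other way. The median tested gene, however, had 1.92% and 1.11% with CDH3-AS1 siRNA, against 0.578% and 0.752% with control siRNA. Like SRSF3, the median tested gene was thus higher with CDH3-AS1 siRNA in both batches, so this direction is not particular to SRSF3. Whether these reads lie in a stretch that other SRSF3 transcripts use as coding sequence was not analysed here. Shares sum UTR reads over a gene's transcripts, while tests used the transcript with the most UTR reads. Of 10 members tested for 3′ UTR reads edgeR called 0, beside 0.0518% of 1931 genes, and SRSF3 stood at 1.03 (SE 1.18, adjusted p = 1.00). Averaged over the libraries, 16 of 32 members had 3′ UTR shares above the median of all tested genes, and 5 were over the 90th percentile. These were HNRNPA3 (38.2%), SRSF3 (16.7%), HNRNPUL2 (11.7%), SRSF10 (10.6%) and SRSF1 (9.16%). The HNRNPA3 mean rests on batch 1, at 60.0% with CDH3-AS1 siRNA and 76.9% with control siRNA, on 18 and 10 3′ UTR reads. In batch 2 it had 3.06% and 12.9%. For HNRNPUL2, most coding reads of the locus are listed under the read-through name.

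Footprints in 5′ UTRs can mark upstream open reading frames. HNRNPUL2 had the highest mean share of 5′ UTR reads, 35.8%, and was the only member over the 90th percentile of all tested genes, but most coding reads of its locus are listed under the read-through name. HNRNPD, the AU-rich element factor AUF1, had 24.8% (22.5 to 27.2) and 21.4% (19.2 to 23.7) of its 5′ UTR and coding reads in the 5′ UTR with CDH3-AS1 siRNA. With control siRNA it had 28.5% (24.1 to 33.3) and 12.4% (11.0 to 13.9). HNRNPC had 31.4% and 21.4% against 11.4% and 17.5%, HNRNPF 12.1% and 15.0% against 20.0% and 14.5%, and HNRNPH3 11.1% and 20.1% against 20.2% and 19.4%. The 5′ UTR reads of HNRNPC stood at 49.6 and 35.9 CPM with CDH3-AS1 siRNA, against 56.0 and 27.6 CPM with control siRNA. Its 11.4% was thus in the library with the most 5′ UTR CPM and the high coding CPM. HNRNPA3 and HNRNPUL2-BSCL2 had 0 5′ UTR reads in every library, and HNRNPM, which binds GU-rich sites, had at most 0.169%. The median tested gene had 1.96% and 3.68% with CDH3-AS1 siRNA, against 2.08% and 2.70% with control siRNA, and 20 of 32 members averaged above the median of all tested genes. Of 22 members tested for 5′ UTR reads edgeR called 0, with and without the block, beside 0% of 3790 genes. At an unadjusted p under 0.05 there were 0 of these members and 13 of all genes. Their median log2 fold change was -0.29, beside 0.02 over all genes tested.

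As over all tested genes, more members were called between the batches than between the siRNAs. With the siRNA as covariate edgeR called 6 of 32 members (18.8%) between batch 2 and batch 1, where 15.8% of all tested genes were called. HNRNPD, its close relative HNRNPDL, HNRNPA3 and SRSF11 were higher in batch 2 (4 members, beside 9.52% of all tested genes). SRSF2 and HNRNPC were lower (2 members, beside 6.3%). HNRNPD had 408 and 328 CPM in batch 2 (CDH3-AS1 siRNA, then control siRNA), against 160 and 151 CPM in batch 1, a log2 difference of 1.23 (SE 0.25, adjusted p = 2.21e-05). SRSF11, an SR-related protein of early spliceosomes, had 113 and 146 CPM against 50.8 and 61.9 CPM (1.19, SE 0.28, adjusted p = 3.91e-04). Between the siRNAs HNRNPD stood at 0.24 (SE 0.56) and SRSF11 at -0.36 (SE 0.54). For both genes each batch 2 library exceeded each batch 1 library.

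HNRNPA3, a relative of HNRNPA1 with many genomic copies, had 95 and 81 reads in batch 2, against 12 and 3 reads in batch 1 (3.63, SE 0.51, adjusted p = 2.56e-10). HNRNPDL, which like HNRNPD binds AU-rich elements, had 293 and 282 CPM in batch 2, against 160 and 191 CPM in batch 1 (0.72, SE 0.25, adjusted p = 0.0296), and stood at -0.07 (SE 0.42) between the siRNAs. SRSF2 had 231 and 161 CPM in batch 2, against 296 and 388 CPM in batch 1 (-0.81, SE 0.25, adjusted p = 0.0104). The batches did not overlap for either gene. HNRNPC stood at -0.74 (SE 0.26, adjusted p = 0.0367), which was 0.28 with CDH3-AS1 siRNA and -1.73 with control siRNA. This call also draws on the batch 1 values for which HNRNPC was singled out. Without the siRNA term, or by DESeq2, 3 members were called, HNRNPA3, HNRNPD and SRSF11. With no siRNA term and 1 library left out in turn, between 0 and 5 were. The plot of batch differences shows HNRNPC away from the diagonal, lower in batch 2 with control siRNA and not with CDH3-AS1 siRNA.

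**Figure D5:**
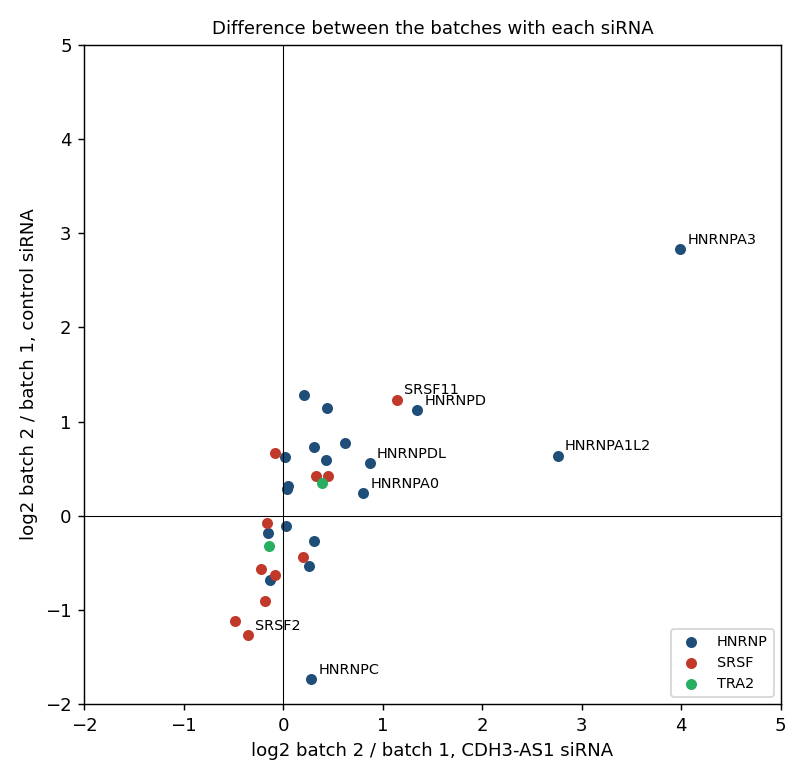
Log2 ratio of batch 2 to batch 1 for 32 tested genes, with CDH3-AS1 siRNA (horizontal) and control siRNA (vertical). HNRNPD and SRSF11 are at 1.35 and 1.14 with CDH3-AS1 siRNA and at 1.12 and 1.23 with control siRNA, while HNRNPC is at 0.28 and -1.73.

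Genes that work with these proteins were described from 6 lists. Of the listed SR protein kinases, which phosphorylate the arginine- and serine-rich tails, 7 of 9 were tested. The lists of nuclear import and arginine methylation (6 of 6 tested), SR-related proteins (19 of 19), core spliceosome (31 of 35), other splicing regulators (33 of 34) and nonsense-mediated decay with the exon junction complex (14 of 15) were tested too. Between the siRNAs, with or without the block, edgeR called 0 genes in any of these 6 lists. Median log2 fold changes were -0.03, 0.01, 0.00, 0.02, 0.09 and 0.22 in the same order, beside -0.03 over all tested genes. In both batches 1, 3, 7, 6, 15 and 9 genes were higher and 1, 0, 3, 4, 6 and 0 lower in the same order, beside 26.5% higher and 27.8% lower over all tested genes.

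UPF1, the helicase at the centre of nonsense-mediated decay, had 313 and 221 CPM with CDH3-AS1 siRNA, against 221 and 131 CPM with control siRNA (0.60, SE 0.39, adjusted p = 0.255 with the block). The STAR-family splicing regulator KHDRBS3 had 125 and 154 CPM against 91.7 and 78.7 CPM, with no overlap (0.71, SE 0.32, adjusted p = 0.214 with the block). The SR kinase SRPK2 had 41.8 and 49.8 CPM against 56.0 and 65.1 CPM (-0.40, SE 0.33). In the remaining lists the genes with the largest change in the unblocked fit, among those of 1 direction in both batches, were TNPO2, an import receptor of hnRNPs (0.32), LUC7L2, a U1 snRNP partner (-0.57), and SF3B4, a U2 snRNP subunit (-0.37). With the block LUC7L (0.54) and SF3A2 (0.41) had larger changes than LUC7L2 (-0.49) and SF3B4 (-0.37). None of the genes of these lists was past the threshold in edgeR between the siRNAs. Called higher in batch 2 than in batch 1 were 1, 0, 4, 5, 0 and 3 genes in list order, beside 9.52% of all tested genes. Called lower were 0, 1, 0, 5, 2 and 2 genes, beside 6.3%.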

How the data were processed

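The authors deposited, per the file headers, counts of reads in the 5′ UTR, coding sequence and 3′ UTR of each transcript, with RPKM for each region. Recomputing coding-sequence RPKM from the deposited counts, lengths and library totals over all regions gave values within 0.00500 of those deposited. The submitters' processing notes name hg38 and DESeq2, and for the aligner, annotation release, strand use and treatment of multiple matches: not given in the sources used here. Members and gene lists were chosen with earlier results of these data known. Members were gene names starting with HNRNP, SRSF followed by digits, TRA2A and TRA2B.

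Coding counts were summed by gene name, filtered by filterByExpr (minimum count 10, minimum total 15) and tested with edgeR 4.0.16 (TMM, quasi-likelihood, prior count 2) in R 4.3.3. P-values were adjusted by Benjamini-Hochberg over all features tested, with a threshold of 0.05. Transcripts, and 5′ and 3′ UTR counts of each gene's transcript with the most such reads, were fitted in the same way, the UTR counts on the coding-sequence scaling. CPM were computed on TMM-scaled coding reads. Standard errors were the log2 fold change divided by the square root of edgeR's F. Same-numbered libraries share a batch in the labels, and their deviations from group means correlated across genes (r = 0.58), so a fit with the batch as replicate block is given where it changes a call. The blocked fit leaves 1 residual degree of freedom and the unblocked fit 2. DESeq2 1.42.0 and limma 3.58.1, the latter on log2(RPKM + 1) from the authors' RPKM values, were alternatives. Full values are given for HNRNPC, members past the threshold in any fit, and the 3 highest and 3 lowest fold changes. Other choices made after values were seen are named as such.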

Additional observations from a re-analysis of the deposited data

How the results depend on the processing

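The cause of the changes below was not tested. Over all genes the siRNA comparison gave 0 calls, and 170 with the replicate block, 149 with the highest transcript and the block, 52 with no filter on low counts, 57 with DESeq2 and the block, 2 with DESeq2 and 7 with limma and the block. Leaving out 1 library gave 0 to 73, with 73 when control siRNA replicate 2 was left out. Members called were 0, and 1 (HNRNPC) with the replicate block, also with the highest transcript. The block changed no other member's call. SRSF2 stood at -0.06, but at 0.060 with the replicate block, 0.074 with DESeq2 and the block, 0.036 with limma with and without the block, and 0.52 and 0.55 with the highest transcript without and with the block. Transcripts called were 0, and 32 with the replicate block, 77 with no filter and 0 to 51 with 1 library left out. For 5′ UTR reads 0 became 8 with no filter and 0 to 14 with 1 library left out. For 3′ UTR reads 1 became 6 with the replicate block, 0 with no filter and 0 to 7 with 1 library left out.

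Between batches 1657 genes and 6 members were called, 538 and 3 with no siRNA term and 694 and 3 with DESeq2. With no siRNA term and 1 library left out, 1280 genes were called without CDH3-AS1 siRNA replicate 1, 120 without its replicate 2, 287 without control siRNA replicate 1 and 29 without its replicate 2. Members called were 5, 0, 1 and 1 in the same order.

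With 1 library left out in turn, fold changes of these members changed sign. HNRNPA3 ran from -1.90 to 3.16, HNRNPD from -0.58 to 0.92, HNRNPDL from -0.56 to 0.31, SRSF11 from -1.03 to 0.40 and SRSF2 from -0.54 to 0.74. Among transcripts, ENST00000336053.10 ran from -2.03 to 0.014, ENST00000359995.10 from -1.30 to 0.28 and ENST00000556142.5 from -0.56 to 1.36. The batch difference of HNRNPC ran from -1.72 to 0.24. Depth limits what could be seen. A gene with 3 coding reads stood at 0.473 and 1.15 CPM with CDH3-AS1 siRNA, and at 1.63 and 0.533 CPM with control siRNA, before TMM scaling.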
